A study of Homo sapiens with 6 samples.

Results

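The CBX genes encode chromobox proteins, which read methylated histone tails through a chromodomain, and 7 of them (CBX1, CBX2, CBX3, CBX5, CBX6, CBX7 and CBX8) are described here among the 17579 genes of the deposited gene table. They were picked by gene symbol and had been chosen by their measured differences between the groups below, the RNA levels being the values that selected the family. They fall into the HP1 class, with 3 members (CBX1, CBX3 and CBX5), and the Polycomb class, with 4 members (CBX2, CBX6, CBX7 and CBX8). The RNA came from LP-1, a line established from a human multiple myeloma and given the cell type label B lymphoblast, and was measured by RNA-seq. Cells had been infected with a virus carrying a guide RNA against AURKA, which encodes Aurora A, a kinase of mitosis (the AURKA-guide libraries, genotype label Aurora A-KO), or with a non-targeting guide (the control libraries, labelled NT Control or vector), and all were grown in 10% fetal bovine serum. Each group had 3 libraries, written A1 to A3 and C1 to C3. The labels do not say whether replicates came from separate cultures, whether the cells were a pool or a clone, or how many guides were used, so a p-value here measures the spread between these libraries alone, which may be technical. Values of the members in the comparison of AURKA-guide with control libraries are a description, without p-values, since that comparison selected them.

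HP1 proteins bind histone H3 methylated at lysine 9 through the chromodomain, and pair through a second, chromoshadow domain that also recruits partners carrying a short hydrophobic motif. They compact pericentromeric heterochromatin and leave mitotic chromosomes when Aurora B phosphorylates the neighbouring serine of H3. Polycomb CBX proteins bind H3 methylated at lysine 27, the mark that PRC2 writes, and join RING1 or RNF2 in the canonical form of PRC1, which ubiquitinates histone H2A. NSD2, which LP-1 overexpresses through its t(4;14) translocation, methylates H3 at lysine 36, a mark that hinders PRC2.

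Total expected counts (reads as divided among transcripts by the authors' software) ran from 17724174 to 18523594 per library. AURKA itself was at 115 ± 3.86 CPM (counts scaled by the sequencing depth of each library) in AURKA-guide and 192 ± 2.85 CPM in control libraries (SD, n = 3 each), so its RNA fell by 0.74 on the log2 scale (SE 0.0488, edgeR quasi-likelihood adjusted p = 1.55e-06). All 8 plasma cell markers passed the filter on low counts, with summed levels of 3415 to 3455 CPM in AURKA-guide and 3492 to 3596 CPM in control libraries. Markers of mature B cells were close to absent despite the cell type label, with 3 of 4 in the table, 1 of them at 0 in every library, and a summed level of at most 1.09 CPM in AURKA-guide and 1.19 CPM in control libraries. Summed markers of T and NK, myeloid, erythroid, stromal and epithelial cells were each at most 5.94 CPM in AURKA-guide and 6.11 CPM in control libraries. One control library stood apart in its effect on the test: 267 of 13138 genes passed an adjusted p of 0.05 with all libraries and 2034 without C3. The difference between groups also followed the GC content of transcripts. Of the 4259 tested genes within the GC range of the HP1 members (39.5% to 47.6%), 65.0% were above 0 on the log2 scale, with a median of 0.04. Of the 927 tested genes within the GC range of the Polycomb members (57.5% to 59.8%), 29.9% were above 0, with a median of -0.07. Each member's difference is therefore given also after a correction for GC content.

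The members' promoters differ widely in base composition. The 4 windows printed each hold the 250 bases before an annotated start, from RefSeq on GRCh38.p14. They are those of the upstream and an internal start of CBX5, whose transcripts are set apart below, of CBX3, which lies head to head with a neighbour, and of CBX6, the abundant Polycomb member with lower values in AURKA-guide libraries. Capitals mark the CCAAT box, the E-box CACGTG and the YY1 core ATGGCGG on either strand. Windows were found for 5 of the 7 members, and that of CBX3 lies before its first start, of a minor transcript, 531 bases upstream of the main one. The CBX1 window, not printed but counted below, also lies before the start of a minor transcript.
CBX5, upstream start, chr12:54280123-54280372, minus strand: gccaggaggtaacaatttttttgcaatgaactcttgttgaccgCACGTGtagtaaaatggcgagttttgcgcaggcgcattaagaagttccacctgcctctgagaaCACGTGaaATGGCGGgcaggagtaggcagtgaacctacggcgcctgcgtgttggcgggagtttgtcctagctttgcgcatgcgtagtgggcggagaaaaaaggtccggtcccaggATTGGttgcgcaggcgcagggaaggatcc
CBX5, internal start, chr12:54259587-54259836, minus strand: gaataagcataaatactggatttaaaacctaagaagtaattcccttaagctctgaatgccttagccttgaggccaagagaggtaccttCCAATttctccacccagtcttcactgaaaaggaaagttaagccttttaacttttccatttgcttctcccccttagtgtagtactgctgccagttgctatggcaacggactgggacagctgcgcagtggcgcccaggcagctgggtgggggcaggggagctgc
CBX3, chr7:26201193-26201442, plus strand: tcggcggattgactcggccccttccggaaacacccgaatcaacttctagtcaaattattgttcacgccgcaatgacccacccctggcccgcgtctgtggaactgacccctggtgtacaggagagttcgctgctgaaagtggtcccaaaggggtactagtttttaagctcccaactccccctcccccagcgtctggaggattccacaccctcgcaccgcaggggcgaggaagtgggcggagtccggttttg
CBX6, chr22:38872217-38872466, minus strand: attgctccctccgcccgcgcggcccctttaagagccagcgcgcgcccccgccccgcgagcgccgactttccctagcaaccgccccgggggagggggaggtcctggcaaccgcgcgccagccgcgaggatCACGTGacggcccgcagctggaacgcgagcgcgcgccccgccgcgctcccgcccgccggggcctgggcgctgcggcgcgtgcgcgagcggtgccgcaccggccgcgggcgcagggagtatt

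The upstream CBX5 window held 17 CpG dinucleotides and the internal one 3, against a median of 11 over 35116 RefSeq windows of the same length, while the CBX3 window held 16 and the CBX6 window 45. On either strand, the E-box CACGTG lay in 2 of the 7 member windows (CBX5 upstream and CBX6) and in 6.34% of all windows. The YY1 core ATGGCGG lay in the upstream CBX5 window and in 2.88% of all windows. The CCAAT box lay in all 3 CBX5 windows, 2 of which overlap, and in that of CBX7, against 32.0% of all windows, and the GC box GGGCGG, not capitalised here, in 4 windows against 42.6%. The CHR element TTTGAA and the E2F sequences TTTGGCGC and TTTCCCGC were in none of the 7. These are matches of letters only. In the upstream CBX5 window CACGTG stands at 2 places, and ATGGCGG follows the one nearer to the start after a gap of 2 bases, without overlap.

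HP1-class RNA was far more abundant than Polycomb-class RNA. Per length, CBX3 (HP1 gamma, found in both heterochromatin and active genes) had the highest level of the 7 members, at 171 FPKM (the authors' values per gene length and sequencing depth) over all 6 libraries, above 97.6% of genes in the table. CBX1 (HP1 beta) followed at 64.6 FPKM and CBX5 (HP1 alpha, the most closely tied to pericentromeric heterochromatin) at 28.9 FPKM. CBX6 came next at 25.0 FPKM, CBX7 at 6.18 FPKM, CBX8 at 1.74 FPKM and CBX2 at 0.228 FPKM. Only CBX5 and CBX6 were neighbours whose ranges over the 6 libraries met (24.9 to 32.4 and 22.6 to 27.1 FPKM), and CBX5 was above CBX6 in 4 of 6 libraries. All other neighbours kept their order in 6 of 6 libraries, by ratios of means between 2.24 and 7.63.

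**Figure D1:**
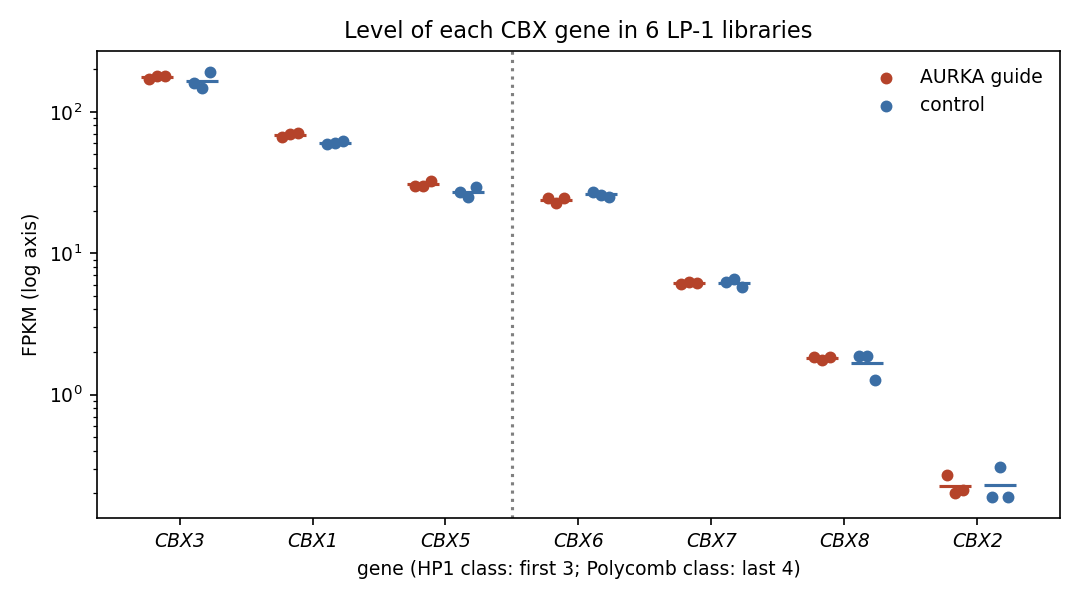
FPKM (log axis) of the 7 CBX genes, with a point for each library and a line at the mean of each group (n = 3), AURKA guide in red and control in blue. Levels span from 171 FPKM for CBX3 to 0.228 FPKM for CBX2, and the groups of CBX1, CBX5 and CBX6 do not overlap.

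Within the HP1 class, CBX1 and CBX5 had higher values in every AURKA-guide library than in any control library. CBX1 had 66.6, 69.4 and 70.9 FPKM in A1 to A3, against 59.0, 59.8 and 61.9 FPKM in C1 to C3. Its groups stood 4.73 FPKM apart at their nearest values. Its log2 difference was 0.19 (SE 0.0488; 0.17 after GC correction), and it stayed between 0.17 and 0.21 when each library was left out in turn. CBX1 thus had the steadiest difference of the members.

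CBX5 had 30.0, 29.9 and 32.4 FPKM in A1 to A3, against 27.0, 24.9 and 29.2 FPKM in C1 to C3. The groups did not overlap, but A2 lay only 0.65 FPKM above C3, the highest control. The log2 difference of CBX5 was 0.18 (SE 0.0558; 0.13 after GC correction, 0.23 without C3 and 0.13 without C2). CBX5 therefore kept its sign but varied more than CBX1 with the control library left out.

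CBX3 had 170, 180 and 178 FPKM in A1 to A3, against 159, 147 and 191 FPKM in C1 to C3. The groups overlapped, because C3 was above every AURKA-guide library while C1 and C2 were below them. Its log2 difference was 0.08 (SE 0.0686), 0.18 without C3, 0.02 without C2 and 0.02 after GC correction. With all libraries that difference lay within the spread between replicates, whose pooled SD was 0.126 on the log2 scale.

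Summed over the 3 genes, HP1-class RNA was 267, 279 and 281 FPKM in A1 to A3 and 245, 231 and 282 FPKM in C1 to C3, with C3 again the highest of all. The makeup of the class was nearly the same in both groups. CBX3 made up 63.8% ± 0.605 of it in AURKA-guide and 65.4% ± 2.20 in control libraries, CBX1 25.0% ± 0.191 and 23.9% ± 1.98, and CBX5 11.2% ± 0.425 and 10.7% ± 0.318 (SD, n = 3 each). In bulk RNA, fewer cells of a state and less RNA per cell cannot be told apart.

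In the Polycomb class only CBX6, a PRC1 subunit, separated the groups. CBX6 had 24.5, 22.6 and 24.6 FPKM in A1 to A3, against 27.1, 26.0 and 25.1 FPKM in C1 to C3, so that every AURKA-guide library was below every control library, the nearest by 0.52 FPKM. Its log2 difference was -0.13 (SE 0.0526) and lay between -0.17 and -0.10 with each library left out. After GC correction it was -0.06, nearer to 0 than in any fit without a library.

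CBX7, which in other cells represses the INK4 locus, had 6.03, 6.23 and 6.20 FPKM in A1 to A3, against 6.23, 6.57 and 5.79 FPKM in C1 to C3. The 3 AURKA-guide libraries lay inside the control range. The log2 difference of CBX7 was 0.0017 (SE 0.0747), from -0.06 without C3 to 0.06 without C2, and 0.07 after GC correction, so its sign depended on the libraries used. CBX8, which joins PRC1 and also binds fusion partners of MLL in leukaemia, had 1.85, 1.77 and 1.84 FPKM in A1 to A3, against 1.86, 1.87 and 1.26 FPKM in C1 to C3. Here C3 alone was low, with an expected count of 36 beside 53 in C1 and 51 in C2. The log2 difference of CBX8 was 0.12 (SE 0.189) with all libraries, -0.05 without C3 and 0.18 after GC correction. CBX2, a PRC1 subunit that compacts nucleosomes, was close to the detection limit, with expected counts of 21, 16 and 10 in A1 to A3, against 15, 24 and 15 in C1 to C3. Its log2 difference was -0.21 (SE 0.331; -0.14 after GC correction) and ranged from -0.48 to 0.08 with each library left out, so neither direction was detectable at this depth. Reads are not independent molecules here, and counting error alone is large at such counts.

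Summed over the 4 Polycomb members, RNA was 32.6, 30.8 and 32.9 FPKM in A1 to A3 and 35.4, 34.7 and 32.4 FPKM in C1 to C3, and the groups overlapped through C3. CBX6 made up 74.4% ± 0.900 of this sum in AURKA-guide and 76.3% ± 1.44 in control libraries (SD, n = 3 each). The ratio of the HP1 sum to the Polycomb sum was 8.18, 9.06 and 8.56 in A1 to A3, against 6.93, 6.66 and 8.72 in C1 to C3. C3 lay within the AURKA-guide range, and C1 and C2 below it. Since the HP1 members have a lower GC content than the Polycomb members, this ratio moves with the GC trend between libraries given above, and the share of that trend in the ratio was not tested.

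**Figure D2:**
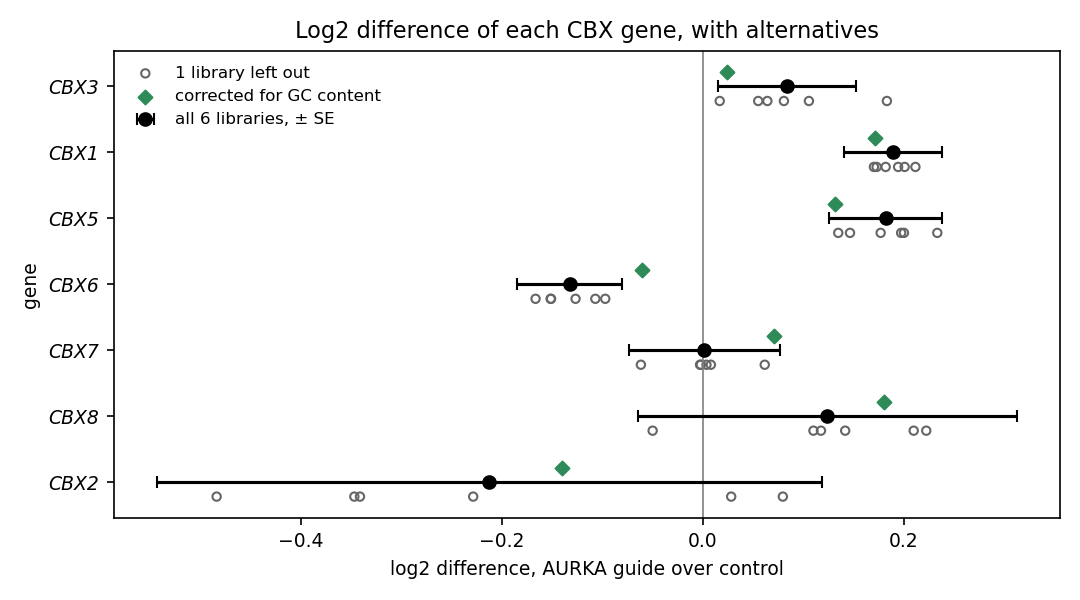
Log2 difference of each CBX gene (AURKA guide over control, x axis) with all 6 libraries ± SE (black), with 1 library left out (open circles) and after a correction for GC content (green). CBX1 stays between 0.17 and 0.21 without each library, while CBX2, CBX7 and CBX8 lie on both sides of 0.

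All 7 members passed the filter on low counts. In CPM, CBX1 and CBX5 were higher without overlap, beside 10.5% of all tested genes that were so, and CBX6 was lower without overlap, beside 10.2%. None of the 7 passed an adjusted p of 0.05 by edgeR, beside 2.03% of all tested genes, 3 had an unadjusted p under 0.05, beside 16.1%, and DESeq2 called CBX1, beside 2.14%. Without C3, edgeR called 4 of the 7 (CBX1, CBX3, CBX5 and CBX6), beside 15.3% of genes, and after GC correction it called CBX1 and CBX5, beside 6.0%. As the members were chosen with this comparison in view, nothing is read from these counts. The median log2 difference of the members was 0.08, beside -9.41e-05 over all tested genes.

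Transcripts showed where the reads of each gene lay, as the authors' software divided them among isoforms that share most of their sequence, so these values are less certain than the gene values. CBX1 was nearly all one transcript: NM_001127228.1 held 96.3% ± 0.509 of the gene's TPM (a transcript's share of all transcripts, per length) in AURKA-guide and 95.9% ± 1.29 in control libraries (SD, n = 3 each). CBX3 was led by NM_016587.3, with 80.9% ± 0.714 in AURKA-guide and 81.3% ± 3.91 in control libraries. The overlap of CBX3 came from this transcript, which had 271, 283 and 290 TPM in A1 to A3 and 251, 218 and 321 TPM in C1 to C3. The second CBX3 transcript, XM_005249611.4, had 55.5, 57.6 and 57.9 TPM in A1 to A3, against 50.3, 55.7 and 48.8 TPM in C1 to C3, and its groups overlapped only because C2 lay above A1.

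CBX5 has an upstream start and 2 internal starts, which lie 20510 and 20557 bases downstream in GENCODE release 29 on GRCh38. The upstream transcript (NM_012117.2) had 45.7, 47.0 and 46.8 TPM in A1 to A3, against 37.7, 42.6 and 48.6 TPM in C1 to C3. The internal transcripts together had 13.7, 11.4 and 17.9 TPM in A1 to A3, against 14.8, 5.05 and 8.83 TPM in C1 to C3. Both sets overlapped between groups, so neither start alone separated them as the gene total did. The internal starts, whose window held the fewest CpG dinucleotides of those printed, made up 23.4% ± 4.11 of the gene in AURKA-guide and 18.1% ± 9.10 in control libraries (SD, n = 3 each), a difference smaller than the spread of the controls.

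CBX6 had a major transcript, NM_014292.4, at 37.8, 40.5 and 47.4 TPM in A1 to A3, against 51.3, 48.1 and 49.4 TPM in C1 to C3. A minor one, NM_001303494.1, whose start lies 98 bases downstream, had 10.6, 3.68 and 1.81 TPM in A1 to A3, against 1.64, 1.68 and 0 TPM in C1 to C3. The major transcript was lower and the minor one higher in every AURKA-guide library, and A1 held most of the minor one. CBX7 reads were spread over 8 transcripts whose shares changed from library to library: 5 of the 8 were at 0 in at least 1 library, and the share of XM_006724174.4 ran from 7.48% to 46.0%. CBX2 was divided among 3 transcripts on too few reads to describe, and CBX8 had 1.

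**Figure D3:**
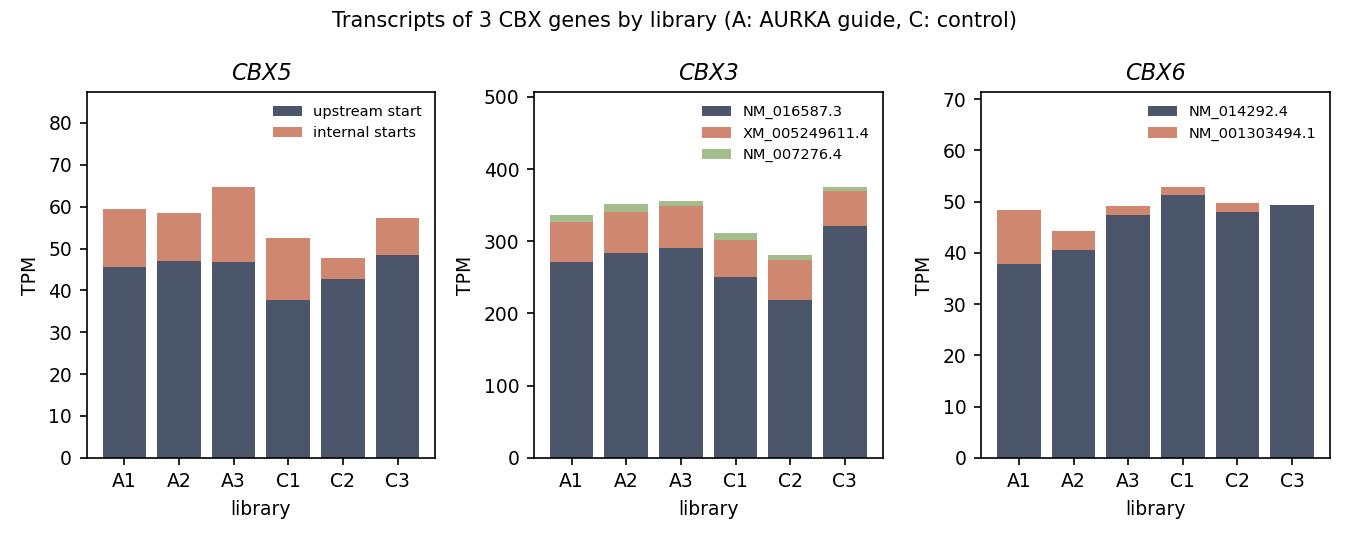
Stacked bars of TPM (y axis) by library (x axis; A, AURKA guide; C, control) for the transcripts of CBX5, CBX3 and CBX6. The internal CBX5 starts vary from 5.05 TPM in C2 to 17.9 TPM in A3, and the minor CBX6 transcript is highest in A1 at 10.6 TPM.

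The authors' deposited transcript table holds a further comparison, of a guide against NSD2 with a control of the same name, whose libraries were not analysed here. Both comparisons appear to share that control, so their values are not independent. For the main CBX1 transcript the authors' deposited table gives a log2 fold change of 0.19 for the AURKA guide and 0.27 for the NSD2 guide. The q-value for the NSD2 guide is 3.09e-05, in a comparison of the authors' deposited table where 1.78% of 78311 transcripts had a q-value under 0.05. For the main CBX6 transcript the authors' deposited table gives -0.28 for the AURKA guide and -0.10 for the NSD2 guide. It gives 0.08 and 0.02 for the upstream CBX5 transcript, and 0.07 and 0.19 for the main CBX3 transcript, with the AURKA guide first. For the NSD2 guide, CBX1 was the only member with a transcript at a q-value under 0.05 in the authors' deposited table. The authors' transcript q-values for the AURKA guide are not given here, since that comparison selected the members. The authors' deposited table of 229 genes for the AURKA guide lists none of the 7, which does not speak for their transcripts.

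HP1 genes lie head to head with other coding genes. In GENCODE release 29 the start of CBX5 lies 60 bases from that of HNRNPA1, so its printed window reaches into that gene. The annotated start of the CBX3 gene lies 367 bases from that of HNRNPA2B1. The main CBX3 transcript starts further downstream, 531 bases past the start of a minor one. Both neighbours encode abundant proteins of RNA splicing. HNRNPA1 had 1628, 1696 and 1633 CPM in A1 to A3, against 1414, 1356 and 1603 CPM in C1 to C3, a log2 difference of 0.18 (SE 0.0550, edgeR adjusted p = 0.123). Its groups did not overlap, as those of CBX5 did not. HNRNPA2B1 had 1398, 1459 and 1483 CPM in A1 to A3, against 1269, 1248 and 1437 CPM in C1 to C3, a log2 difference of 0.13 (SE 0.0531, edgeR adjusted p = 0.230). Its groups overlapped because C3 lay above A1. Without C3 both neighbours passed (edgeR adjusted p = 5.44e-04 for HNRNPA1 and 0.00336 for HNRNPA2B1), beside 15.3% of all tested genes. After GC correction HNRNPA1 was at 0.14 (edgeR adjusted p = 0.0152), beside 6.0% of genes that passed, and HNRNPA2B1 was at 0.07 (edgeR adjusted p = 0.170). SNX11, a sorting nexin whose start lies 1836 bases from that of CBX1, was at 15.1 ± 1.60 CPM in AURKA-guide and 15.3 ± 0.795 CPM in control libraries (SD, n = 3 each). Its log2 difference was -0.01 (SE 0.0909, edgeR adjusted p = 0.958). SNX11 overlapped between groups, unlike CBX1. No head-to-head coding start lay within 2000 bases of the other 4 members.

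The genes whose values followed a member most closely over the 6 libraries were found among 9227 genes with at least 10 CPM. For CBX1, with the largest difference of its class, they were ADAT2 (Pearson r = 0.999), SERINC5 (0.994) and BTF3L4 (0.992). In the Polycomb class CBX2, below 10 CPM, had the difference of largest size (-0.21), and CBX6 was used instead. The closest genes for CBX6 were ZBTB22 (0.995), BDH1 (0.995) and GALNT18 (0.993). Of the 9227 genes, 69 reached at least 0.95 with CBX1 and 37 with CBX6. With only 6 libraries in 2 groups, a high correlation does not show a link between genes.

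The partners of HP1 did not pass the test. Of 33 genes of H3 lysine 9 methylation and HP1 binding, none rose or fell by edgeR or by DESeq2, beside 2.03% and 2.14% of all tested genes. An unadjusted p under 0.05 was found for 4 of the 33 (all higher), beside 16.1% of all tested genes. Their median log2 difference was 0.05 and, after GC correction, 0.02, beside -9.41e-05 and -0.0018 over all tested genes. ATRX, a remodeller that HP1 helps bring to heterochromatin, was at 83.1 ± 2.47 CPM in AURKA-guide and 70.2 ± 9.25 CPM in control libraries (SD, n = 3 each). On the log2 scale ATRX was at 0.24 (SE 0.0772, edgeR adjusted p = 0.144; 0.17 after GC correction). LRIF1, which binds HP1 on the inactive X chromosome, was at 0.15 (SE 0.0607; 0.09 after GC correction) and the cohesin loader NIPBL at 0.13 (SE 0.0561; 0.07 after GC correction). The lysine 9 methyltransferases SUV39H1 and SUV39H2 were at -0.05 (SE 0.0832) and 0.06 (SE 0.0714), both at 0.01 after GC correction, and SETDB1 was at 0.07 (SE 0.0499). AURKB, the kinase that releases HP1 in mitosis, was at -0.0031 (SE 0.0562; 0.04 after GC correction). After GC correction 2 of the 33 passed, ATRX and INCENP, a subunit of the Aurora B complex, beside 6.0% of all tested genes. Without C3 7 of the 33 did, 5 higher and 2 lower (ATRX, FAM208A, LBR, NIPBL, SMCHD1, TRIM28 and WIZ), beside 15.3%. These shares in all tested genes (2.03% and, at an unadjusted p, 16.1% with all libraries, 6.0% after GC correction and 15.3% without C3) apply to each of the lists that follow.

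Partners of the Polycomb class did not pass either. Of 28 genes of PRC1, none rose or fell by edgeR or DESeq2, and 4 had an unadjusted p under 0.05, 2 higher and 2 lower, beside 16.1% of all tested genes. The median log2 difference was 0.02 (-0.0033 after GC correction). AUTS2, of a variant PRC1, was at 0.17 (SE 0.0528), PCGF1, which marks another variant, at -0.26 (SE 0.0851) and PCGF2, of canonical PRC1, at -0.16 (SE 0.0669; -0.10 after GC correction). The catalytic RING1 was at -0.13 (SE 0.0674; -0.04 after GC correction) and RNF2 at 0.02 (SE 0.0880; -0.05 after GC correction), and BMI1 at -0.03 (SE 0.0553; -0.10 after GC correction). AUTS2 alone of the 28 passed after GC correction, and PCGF1 and RING1 without C3, beside 6.0% and 15.3% of all tested genes. Of 14 tested genes of PRC2 and the lysine 27 demethylases, none passed by edgeR or DESeq2 or had an unadjusted p under 0.05, and EPOP and SUZ12 passed without C3. Their median was 0.07 (0.04 after GC correction). JARID2, which brings PRC2 to its sites, was at 0.12 (SE 0.0603), the histone-binding RBBP4 at 0.08 (SE 0.0432; 0.03 after GC correction) and the methyltransferase EZH1 at 0.11 (SE 0.0604).

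The last partner lists were smaller. Of 10 genes of the H2A deubiquitinases and their partners, none passed by edgeR or DESeq2 and 3 had an unadjusted p under 0.05, beside 16.1% of all tested genes (median -0.04; -9.29e-04 after GC correction). FOXK2, a forkhead partner of BAP1, was at -0.15 (SE 0.0547). The enzymes MYSM1 and USP16 were at 0.16 (SE 0.0675) and 0.15 (SE 0.0668), both at 0.08 after GC correction, and these 3 genes passed without C3, beside 15.3%. Of 19 tested further chromodomain proteins, 3 of them also in the HP1 partner list, none passed by either tool and 3 had an unadjusted p under 0.05, beside 16.1% (median 0.04; 0.02 after GC correction). The remodeller CHD9 was at 0.19 (SE 0.0620; 0.12 after GC correction), ARID4A at 0.23 (SE 0.0790) and MSL3, of an H4 acetyltransferase complex, at 0.21 (SE 0.0770), and ARID4A and CHD1 passed without C3.

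Of 28 genes known as Polycomb targets in other cells, 13 passed the filter on low counts (median log2 difference -0.02; 2.02e-04 after GC correction). Among these 13, 1 fell by edgeR and DESeq2, beside 2.03% of all tested genes. This gene, CDKN1C (p57), an inhibitor of cyclin-dependent kinases, had 15.6, 13.6 and 14.2 CPM in A1 to A3, against 21.9, 24.7 and 18.4 CPM in C1 to C3. No AURKA-guide library reached the lowest control. CDKN1C fell by 0.58 on the log2 scale (SE 0.103, edgeR adjusted p = 0.00735; -0.47 after GC correction), and the call was lost without A2 (adjusted p = 0.0751) and without A3 (adjusted p = 0.0589). The transcription factor SOX4 was at 0.16 (SE 0.0514, edgeR adjusted p = 0.143) and cyclin D2 (CCND2) at 0.13 (SE 0.0439, edgeR adjusted p = 0.149), and both passed after GC correction and without C3, giving 3 called of 13 in each case, beside 6.0% and 15.3% of all tested genes. The INK4 genes, classical targets of CBX7 and CBX8, were both expressed. CDKN2A had 273, 268 and 260 FPKM in A1 to A3, against 267, 292 and 251 FPKM in C1 to C3, and CDKN2B had 6.37, 5.98 and 6.38 FPKM, against 6.15, 5.88 and 6.87 FPKM. The control ranges of both genes contained all AURKA-guide values.

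**Figure D4:**
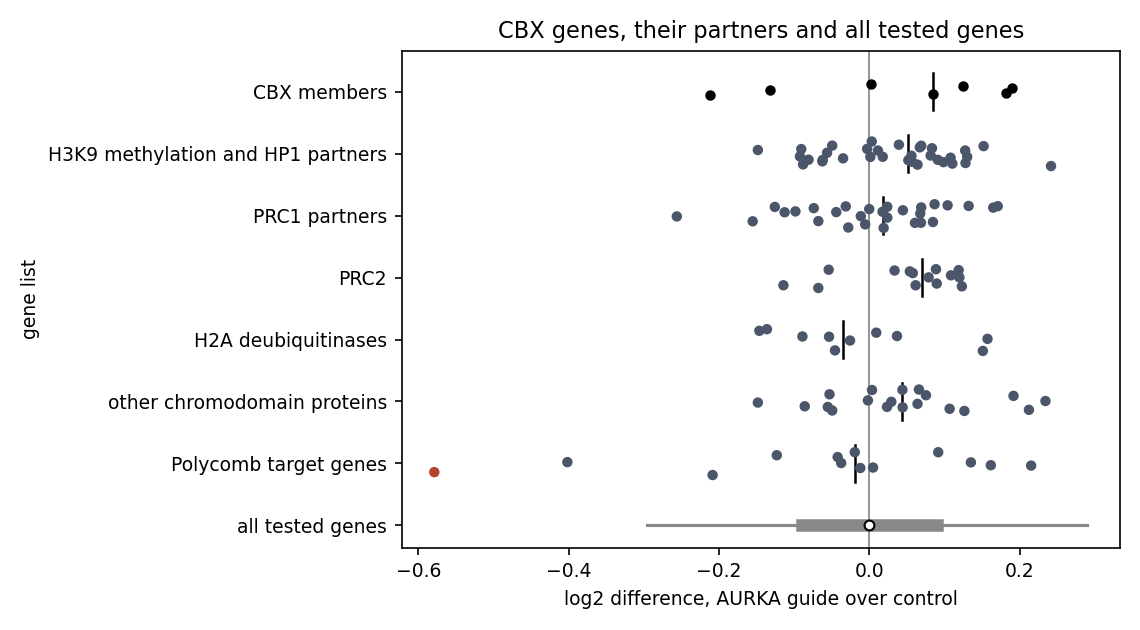
Log2 difference (AURKA guide over control, x axis) of the CBX genes and of each list of partners (y axis), with a point for each tested gene, a bar at the median and CDKN1C, the 1 gene past the threshold, in red; the bottom line gives the 5th to 95th percentile of all tested genes, with the middle 50% thick. Medians of the partner lists lie between -0.04 and 0.07, near the median of all genes.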

How the data were processed

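Per the labels' protocols, Trizol was used for RNA and the BGISEQ-500 protocol for libraries. The tools BWA, Bowtie2 and RSEM and the build hg19 are named in the submitters' processing notes, without versions or roles, and strandedness and RNA selection were not stated. For each library the authors deposited expected counts (44.8% of gene values not whole), FPKM for genes and TPM for transcripts. Per the file headers, the authors' deposited comparison table of transcripts gives log2 fold changes with p-values and q-values from DESeq2.

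The rounded counts went through edgeR 4.0.16 under R 4.3.3 (filterByExpr, TMM scaling, quasi-likelihood F test, Benjamini-Hochberg adjustment over 13138 genes, threshold 0.05), with the SE from the F statistic; limma 3.58.1 and DESeq2 1.42.0 served as alternatives. The procedure was tested on simulated data. The GC correction used a natural spline (5 degrees of freedom) on transcript GC content from GENCODE release 29, known for 16866 genes and all 7 members. The members and gene lists were chosen with earlier results of these data known. Named genes are the members, AURKA, called list members and the 3 with the smallest p in each list, the INK4 genes, head-to-head neighbours (within 2000 bases, a limit set after the annotation was read) and the 3 genes most correlated with CBX1 and CBX6; further list genes (SUV39H1, SUV39H2, SETDB1, AURKB, INCENP, RING1, RNF2 and BMI1) are named for their role and after their values were seen. Some genes are not reported here. RefSeq lists 5 pseudogenes of CBX1, 10 of CBX3 and 1 of CBX5, none in the gene table, and reads shared with them may be placed wrongly. The labels share replicate numbers 1 to 3. Deviations of same-numbered libraries correlated at 0.152, -0.145 and 0.357 over 9227 genes, and those of differently numbered libraries at -0.517 to 0.481. No pairing by number was seen, so the main fit had no block. With 3 libraries per group these linked correlations cannot exclude a pairing.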

Additional observations from a re-analysis of the deposited data

How the results depend on the processing

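The members' log2 differences were computed under 16 alternatives. Of 108 values, 106 moved by less than the SD between replicates, and CBX6 moved by more in 2, to -0.06 after GC correction with and without the replicate block. CBX7, CBX8 and CBX2 changed sign in single fits without a library, CBX7 also with all libraries under DESeq2 size factors, DESeq2's own test and both fits on log2 FPKM (from -0.0082 to -1.23e-04), and CBX8 and CBX2 on 36 to 53 and 10 to 24 counts per library, too few to show a difference of this size. The minimum of 10 CPM removed CBX2 and CBX8, and the fits on log2 FPKM removed CBX2. The order of levels was the same in all 7 members with FPKM as a share of the library sum. Dividing a library by its own sum cannot change the order within it, so nothing is read from this. The number of changed genes, 267, ranged from 98 to 2034 without single libraries and was 788 after GC correction, 881 with GC correction and the replicate block, and 36 at a minimum absolute log2 fold change of 1. With the replicate block alone it was 385. The blocked fit called 2 of the 7 members, CBX1 and CBX5, beside 2.93% of all tested genes. It also called ATRX, with 1 gene in the HP1 partner list, and changed no other list's count. Whether the replicate numbers pair the libraries is not known. In the HP1 partner list (0 called), fits without a library called 0 to 7, GC correction 2 and GC correction with the block 3. The PRC1 list (0) gave 0 to 2, 1 and 1, and the Polycomb target list (1) gave 0 to 3, 3 and 3 under the same settings. Without single libraries the PRC2 and chromodomain lists (0 each) gave 0 to 2 and the deubiquitinase list (0) 0 to 3, and the chromodomain list gave 1 with GC correction and the block (CHD3). SNX11, at -0.01, changed sign within its error, from -0.10 to 0.044 without single libraries, 0.0037 after GC correction and 0.0022 with the block as well. The causes were not tested.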
